A study of Mus musculus with 11 samples.

Results

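The genes Id1, Id2, Id3, Smad6, Smad7 and Skil, targets of the BMP and TGF-beta pathways, were followed through heat shock and knockdown of YAP and TAZ in mouse melanoma cells. They were taken by name from a gene table of 54686 entries, and all 6 were found. All 6 also passed the filter on low values (1 FPKM or more in 2 libraries or more) that left 12626 genes for testing.

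The study measured RNA by sequencing in B16-OVA cells, a melanoma line of C57BL/6J origin, to ask how YAP and TAZ shape the transcriptome after heat shock. Cells were transfected with control siRNA or with pooled siRNAs directed at Yap1 and Wwtr1, the genes of YAP and TAZ. After 48 h they were left unheated or were held at 45 °C for 1 h and returned to 37 °C for 6 h. The groups were unheated control siRNA cells (n = 3 libraries), heated control siRNA cells (n = 2, replicates 1 and 3), unheated YAP/TAZ siRNA cells (n = 3) and heated YAP/TAZ siRNA cells (n = 3). Every library thus came from transfected cells of the same line, and no untransfected group was analysed here. The second replicate of heated control siRNA cells is not analysed here. Whether replicates were separate cultures is not stated in the labels, and p-values thus reflect the spread among these libraries alone, which may be technical.

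In the BMP and TGF-beta pathways, a secreted ligand brings type I and type II receptor kinases together, and the receptors phosphorylate receptor-regulated SMAD proteins. These join the shared partner Smad4, enter the nucleus and switch on target genes. ID genes are well-known targets of the BMP branch: ID proteins pair with basic helix-loop-helix (bHLH) factors and, having no basic region, keep them off DNA. Smad6 and Smad7 encode inhibitory SMADs and Skil encodes SnoN, a SMAD corepressor, so the products of these targets act back on the pathway. YAP and TAZ are co-activators of the Hippo pathway that bind DNA through TEAD factors, and they can also meet SMAD complexes in the nucleus.

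Values are FPKM, fragments mapped to a gene divided by its length and by the mapped fragments of the library, so levels of different genes can be compared. Changes are differences in log2(FPKM + 1) ± standard error from 1 limma fit over all 11 libraries, with Benjamini-Hochberg adjusted p-values over the 12626 genes. A gene was called higher or lower at an adjusted p under 0.05. Adding 1 shrinks the changes of weakly expressed genes, and it can distort an interaction where levels differ without heat.

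In control siRNA cells, heat raised Id1, Id3, Smad7 and Skil, whose mean FPKM stood 3.57, 2.31, 4.0 and 3.34 times as high as without heat. In YAP/TAZ siRNA cells Id1 and Id2 fell with heat and the other 4 did not pass the test. The heat changes of Id1, Id3, Smad7 and Skil differed between the siRNAs, and after heat these 4 genes were lower with YAP/TAZ siRNA. Without heat, Id1 was lower with YAP/TAZ siRNA and the other 5 did not pass. In bulk RNA, a change in the level per cell and a change in the share of cells with the transcript cannot be told apart. The 5 comparisons share libraries with each other and are not independent.

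**Figure D1:**
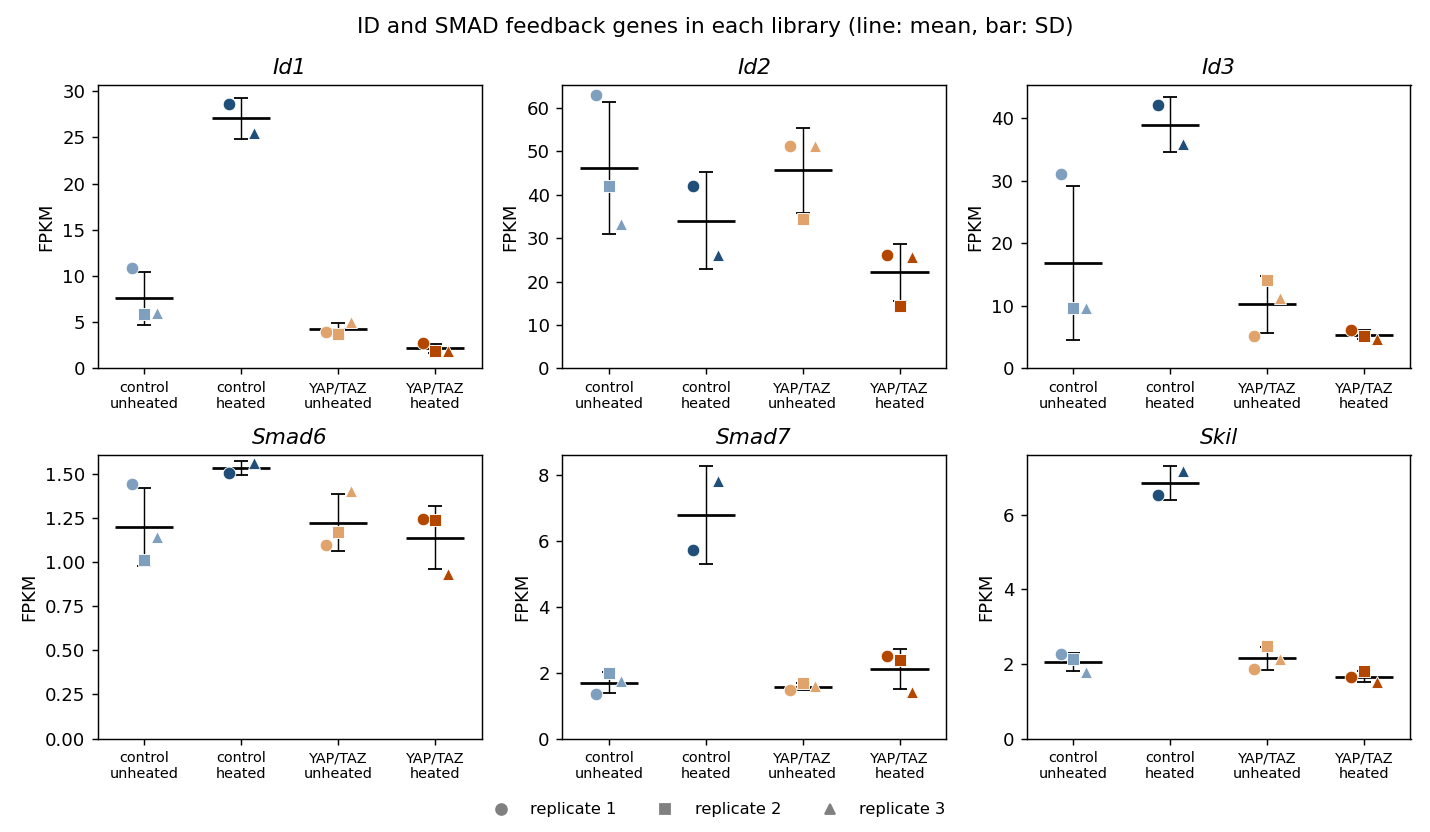
FPKM (linear axis from 0, one scale per gene) of the 6 genes in each of the 11 libraries (points, one symbol per replicate number), with the group mean (line) and SD (bar) in the 4 groups. The heated control siRNA libraries were the highest for Id1, Id3, Smad6, Smad7 and Skil, and Id2 had overlapping ranges in most groups.

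Heat under control siRNA gave 4 members called higher of 6, against a background of 12.4% of all tested genes called higher and 49.2% called in either direction. The median log2 change of the 6 members was 1.37, beside -0.16 over all tested genes. In 5 of the 6 members the heated and unheated libraries did not overlap, which held for 69.8% of all tested genes. Heat under YAP/TAZ siRNA gave 2 members called lower, against 31.7% of all genes (50.3% in either direction), with a median of -0.48 beside -0.086. The difference between the heat changes, called the interaction below (heat change under YAP/TAZ siRNA minus heat change under control siRNA), was called lower for 4 members, against 13.4% of all genes (37.9% in either direction), with a median of -1.44 beside 0.11. Genes called both higher with heat under control siRNA and lower for the interaction made up 7.90% of all tested genes. The members were chosen with earlier results of these data known. The counts and medians set beside all genes, here and below, are thus descriptions and not tests.

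Id1 (ENSMUSG00000042745; GRCm38 chromosome 2, 152736251 to 152737410, plus strand) encodes an ID protein that binds E proteins, the widely expressed bHLH factors. It stood at 10.9, 5.91 and 5.97 FPKM in the unheated control siRNA libraries and at 28.6 and 25.5 FPKM in the heated ones. Under YAP/TAZ siRNA it stood at 3.99, 3.72 and 5.03 FPKM without heat and at 2.76, 1.93 and 1.84 FPKM after heat. The 4 groups did not overlap: heated control siRNA cells were highest, then unheated control siRNA cells, then unheated YAP/TAZ siRNA cells, and heated YAP/TAZ siRNA cells were lowest.

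Heat thus moved Id1 in opposite directions under the 2 siRNAs. The log2 change with heat was 1.76 ± 0.23 under control siRNA (adjusted p = 0.00023) and -0.73 ± 0.21 under YAP/TAZ siRNA (adjusted p = 0.0170). The interaction was -2.48 ± 0.31 (adjusted p = 0.00038). After heat, mean Id1 was 12.4 times as high under control siRNA (27.1 ± 2.24 FPKM, SD, n = 2) as under YAP/TAZ siRNA (2.18 ± 0.506 FPKM, SD, n = 3). On the log2 scale this was -3.15 ± 0.23 (adjusted p = 6.59e-06), the 17th lowest change among all tested genes. Without heat the ratio was 1.79 and the log2 change -0.67 ± 0.21 (adjusted p = 0.0244).

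The calls of the 2 smaller changes of Id1 were lost without some single libraries and under some settings, while both changes stayed negative throughout. The call without heat ended without unheated YAP/TAZ siRNA replicate 1 (-0.64, adjusted p = 0.0664) or replicate 2 (-0.60, adjusted p = 0.0773), with no filter on low values (adjusted p = 0.0601) and in a fit of those groups alone (adjusted p = 0.0604), and its size fell to -0.41 (adjusted p = 0.0474) without unheated control siRNA replicate 1. The fall with heat under YAP/TAZ siRNA lost its call without unheated replicate 3 (-0.62, adjusted p = 0.0549), without heated replicate 3 (-0.65, adjusted p = 0.0582) and after quantile normalization (-0.57, adjusted p = 0.0535).

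Id3 (ENSMUSG00000007872; chromosome 4, 136143497 to 136145755, plus strand), an ID gene often induced together with Id1, was one of 3 members whose promoter window was in the RefSeq table (GRCm38.p6, 250 bases before the annotated start). Its matches to short motifs are printed here because it was called for heat under control siRNA and for YAP/TAZ siRNA after heat. The first of these calls was fragile, as given below. The window was searched on both strands for CAGAC (the SMAD box), GGCGCC (a GC-rich BMP response element), GGAATG (the TEAD motif) and GAANNTTC (a pair of heat shock element units), 4 motifs that do not contain each other. It held CAGAC in both orientations and GGAATG on the opposite strand. In the lines below, capitals mark the match and lower case the 10 bases on each side, on the gene's strand, 5′ to 3′.
Id3 SMAD box, chr4:136143645-136143669, bases -167 to -163 from the start: tcctcggcgtCAGACcagcctaagg
Id3 SMAD box on the opposite strand, chr4:136143744-136143768, bases -68 to -64: acccttggcgGTCTGttttgaataa
Id3 TEAD motif on the opposite strand, chr4:136143609-136143634, bases -203 to -198: agcgcttcctCATTCCtcgcatccga

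These 3 stretches overlap annotated Id3 exons in GENCODE M21, where the Id3 gene begins upstream of them, at 136143497. Whether the exons are untranslated there was not checked. Of 32851 RefSeq promoter windows of the same length, 42.2% held CAGAC, 12.6% held GGAATG, 9.59% held GGCGCC and 6.69% held GAANNTTC. A match is a description of the sequence and says nothing about binding.

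Id3 stood at 31.1, 9.65 and 9.73 FPKM in the unheated control siRNA libraries and at 42.1 and 35.8 FPKM in the heated ones. With YAP/TAZ siRNA the values were 5.26, 14.2 and 11.2 FPKM in the unheated libraries and 6.16, 5.14 and 4.77 FPKM in the heated ones. Both heated control siRNA libraries were above all other libraries, but unheated control siRNA replicate 1 stood well apart from the other unheated control siRNA libraries. In that replicate, Id1, Id2, Smad6 and Skil were also the highest of their group, and Smad7 was the lowest. Unheated YAP/TAZ siRNA libraries overlapped both the unheated control siRNA and the heated YAP/TAZ siRNA libraries.

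The contrast between the siRNAs after heat was the firmest Id3 result: mean Id3 was 7.27 times as high under control siRNA, a log2 change of -2.65 ± 0.49 (adjusted p = 0.00151). Heat raised Id3 by 1.37 ± 0.49 under control siRNA (adjusted p = 0.0428), and its change under YAP/TAZ siRNA was -0.73 ± 0.44 (adjusted p = 0.193). The interaction was -2.10 ± 0.66 (adjusted p = 0.0319). Without heat the change with YAP/TAZ siRNA was -0.55 ± 0.44 (adjusted p = 0.334), with a 95% confidence interval from -1.54 to 0.43.

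Id3's heat and interaction calls were fragile in both directions. Without unheated control siRNA replicate 1, the library that stood apart, heat raised Id3 by 1.90 (adjusted p = 0.00266) and the interaction was -2.63 (adjusted p = 0.00343), while the change with YAP/TAZ siRNA in unheated cells was -0.024 (adjusted p = 0.965). The heat call under control siRNA ended without unheated control siRNA replicate 2 (1.10, adjusted p = 0.123) or 3 (1.11, adjusted p = 0.120), without heated control siRNA replicate 1 (1.26, adjusted p = 0.175) or 3 (1.48, adjusted p = 0.110), and without unheated YAP/TAZ siRNA replicate 3 (adjusted p = 0.0538) or heated YAP/TAZ siRNA replicate 1, 2 or 3 (adjusted p = 0.0562, 0.0572 and 0.0559). The interaction call ended without unheated control siRNA replicate 2 (-1.83) or 3 (-1.84), heated control siRNA replicate 1 (-1.99) or 3 (-2.21), unheated YAP/TAZ siRNA replicate 2 (-1.84) or 3 (-1.99) and heated YAP/TAZ siRNA replicate 2 (-2.08) or 3 (-2.03). With no filter on low values the adjusted p was 0.0797 for heat and 0.0634 for the interaction.

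Id2 (ENSMUSG00000020644; chromosome 12, 25093799 to 25097140, minus strand), had the highest mean level of the 6 members in 3 of the 4 groups, heated control siRNA cells being the exception. Its promoter window held GGCGCC, printed because Id2 and Id3, of the same family, differed in which of the motifs they held. The letters of the other 3 motifs were not in this window. The printed stretch lies within the annotated Id2 gene but overlaps none of its annotated exons.
Id2 BMP response GC element, chr12:25096308-25096333, bases -231 to -226 from the start, outside annotated exons: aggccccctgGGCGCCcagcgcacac

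Id2 stood at 62.9, 42.0 and 33.3 FPKM in the unheated control siRNA libraries and at 41.9 and 26.1 FPKM in the heated ones. In cells with YAP/TAZ siRNA the level was 51.3, 34.4 and 51.3 FPKM in the unheated libraries and 26.1, 14.4 and 25.7 FPKM in the heated ones. Heated and unheated libraries overlapped under control siRNA and did not overlap under YAP/TAZ siRNA.

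Id2 fell with heat under YAP/TAZ siRNA, by 1.04 ± 0.30 on the log2 scale (adjusted p = 0.0191). Under control siRNA the heat change was -0.41 ± 0.34 (adjusted p = 0.347), and the difference between these changes did not pass the test (-0.62 ± 0.46, adjusted p = 0.316, 95% confidence interval -1.65 to 0.41). The fall lost its call without unheated YAP/TAZ siRNA replicate 1 (-0.94, adjusted p = 0.0618) or 3 (-0.94, adjusted p = 0.0555), or without heated YAP/TAZ siRNA replicate 2 (-0.77, adjusted p = 0.0596). The change with YAP/TAZ siRNA was 0.013 ± 0.30 without heat (adjusted p = 0.981, 95% confidence interval -0.67 to 0.70) and -0.61 ± 0.34 after heat (adjusted p = 0.160). Across the 11 libraries, Pearson's r of log2 values was 0.93 between Id1 and Id3, and only 0.37 and 0.38 between Id2 and each of them, with group means and depth shared by all points.

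Smad7 (ENSMUSG00000025880; chromosome 18, 75367529 to 75395935, plus strand), an inhibitory SMAD that blocks receptors of both branches and recruits ubiquitin ligases to them, stood at 1.35, 2.00 and 1.73 FPKM in the unheated control siRNA libraries and at 5.72 and 7.83 FPKM in the heated ones. With YAP/TAZ siRNA the values were 1.46, 1.67 and 1.59 FPKM in the unheated libraries and 2.51, 2.39 and 1.41 FPKM in the heated ones. The heated control siRNA libraries stood above all others, and the other 3 groups overlapped.

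Heat raised Smad7 by 1.52 ± 0.18 on the log2 scale under control siRNA (adjusted p = 0.000105). Under YAP/TAZ siRNA the change was 0.25 ± 0.16 (adjusted p = 0.224), which passed the test only without heated replicate 3, the low library of its group (0.42, adjusted p = 0.0336). The interaction was -1.27 ± 0.24 (adjusted p = 0.00323), and after heat Smad7 was lower with YAP/TAZ siRNA by 1.33 on this scale (-1.33 ± 0.18, adjusted p = 0.000233), 6.78 FPKM against 2.10 FPKM in the means. Without heat the change with YAP/TAZ siRNA was -0.059 ± 0.16 (adjusted p = 0.793, 95% confidence interval -0.42 to 0.30).

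Smad6 (ENSMUSG00000036867; chromosome 9, 63953076 to 64022059, minus strand), the inhibitory SMAD that acts mainly on BMP receptors and their SMADs, had the lowest level of the 6 in most libraries. It stood at 1.44, 1.01 and 1.14 FPKM in the unheated control siRNA libraries and at 1.51 and 1.56 FPKM in the heated ones. In cells with YAP/TAZ siRNA the level was 1.09, 1.17 and 1.40 FPKM in the unheated libraries and 1.24, 1.24 and 0.932 FPKM in the heated ones. Its heated control siRNA libraries were again above all others, by a small margin, and no comparison of Smad6 passed the test.

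The largest Smad6 changes were 0.21 ± 0.11 with heat under control siRNA (adjusted p = 0.134, 95% confidence interval -0.03 to 0.45) and -0.25 ± 0.11 with YAP/TAZ siRNA after heat (adjusted p = 0.0750). With median-of-ratios scaling between libraries both passed the test (0.34, adjusted p = 0.0263, and -0.35, adjusted p = 0.0186). The second also passed after quantile normalization (-0.30, adjusted p = 0.0322) and with all libraries scaled to the same summed FPKM (-0.29, adjusted p = 0.0496). The Smad6 interaction was -0.27 ± 0.14 (adjusted p = 0.173). Whether Smad6 and Smad7 differed in their response was not tested. The RefSeq window of Smad6 had no match to the 4 motifs in these letters.

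Skil (ENSMUSG00000027660; chromosome 3, 31095058 to 31122577, plus strand) encodes SnoN, which sits on SMAD complexes at target genes and is broken down when the pathway is switched on. It stood at 2.25, 2.13 and 1.78 FPKM in the unheated control siRNA libraries and at 6.54 and 7.18 FPKM in the heated ones. Under YAP/TAZ siRNA it stood at 1.85, 2.47 and 2.14 FPKM without heat and at 1.65, 1.82 and 1.52 FPKM after heat. Its spread within groups was small, and the heated control siRNA libraries stood far above the rest.

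Skil had the smallest error of the 4 genes that rose. Heat raised it by 1.37 ± 0.10 under control siRNA (adjusted p = 6.44e-06), the interaction was -1.61 ± 0.14 (adjusted p = 4.44e-05), and the change with YAP/TAZ siRNA after heat was -1.56 ± 0.10 (adjusted p = 3.12e-06). Without heat it was 0.045 ± 0.09 (adjusted p = 0.720, 95% confidence interval -0.16 to 0.25). Under YAP/TAZ siRNA the heat change of -0.24 ± 0.09 lay just outside the threshold (adjusted p = 0.0508), and it was called in 7 of 20 alternatives. It passed without unheated YAP/TAZ siRNA replicate 1 (-0.31, adjusted p = 0.0271), without heated YAP/TAZ siRNA replicate 2 (-0.28, adjusted p = 0.0480) or without unheated control siRNA replicate 3 (adjusted p = 0.0440), and was -0.17 (adjusted p = 0.173) without unheated YAP/TAZ siRNA replicate 2. Over the other settings it ranged from -0.35 to -0.095. The value was -0.35 with a pseudocount of 0.1 (adjusted p = 0.0458) and with all libraries scaled to the same summed FPKM (adjusted p = 0.0149). After quantile normalization it was -0.095 (adjusted p = 0.382).

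**Figure D2:**
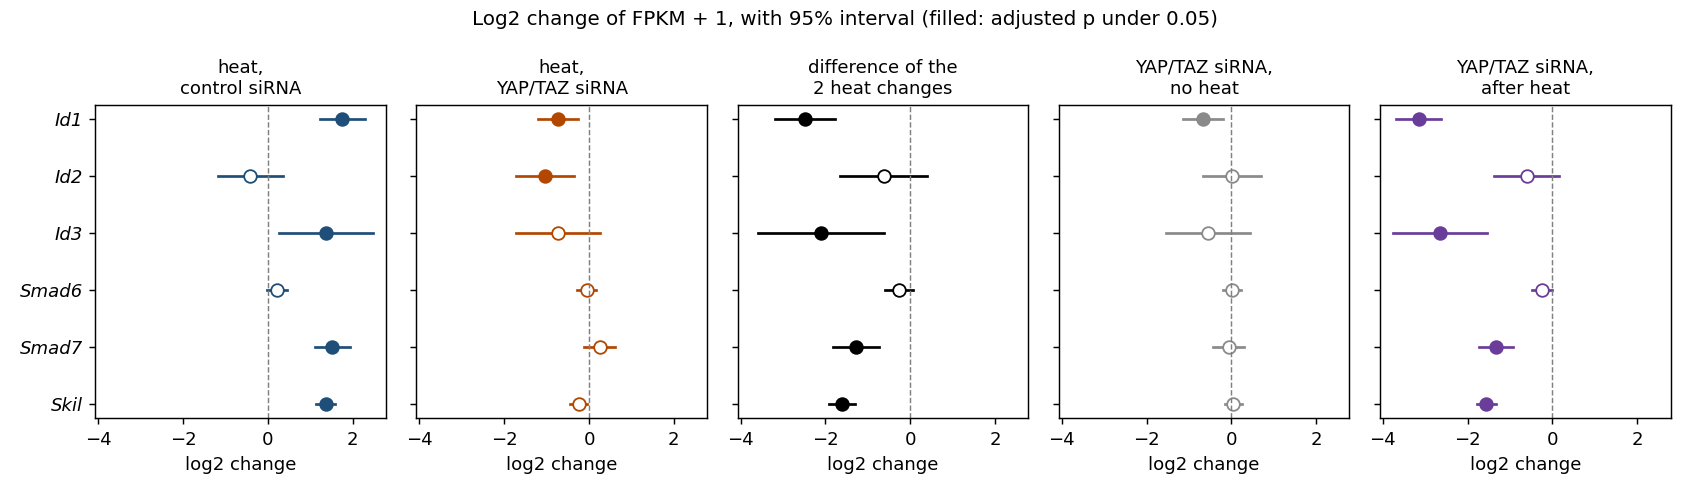
Log2 change ± 95% confidence interval (horizontal axis) of each of the 6 genes in the 5 comparisons, from the limma fit over 11 libraries, with filled points at an adjusted p under 0.05 and the dashed line at no change. Id1, Id3, Smad7 and Skil lie right of the line for heat under control siRNA (1.37 to 1.76) and left of it for the interaction (-2.48 to -1.27) and for YAP/TAZ siRNA after heat (-3.15 to -1.33).

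YAP/TAZ siRNA without heat left 5 of the 6 members uncalled, with Id1 lower, beside 21.9% of all tested genes called lower and 49.0% called in either direction; the members' median was -0.023 and that of all genes 0.023. After heat, YAP/TAZ siRNA cells had 4 members called lower (Id1, Id3, Smad7 and Skil), beside 17.9% of all genes called lower and 54.3% called in either direction, with a median of -1.45 against 0.13. The targeted genes were lower in both states: Yap1 changed by -1.38 ± 0.30 without heat (adjusted p = 0.00445) and -1.43 ± 0.34 after it (adjusted p = 0.00593), and Wwtr1 by -1.45 ± 0.16 (adjusted p = 6.09e-05) and -1.62 ± 0.17 (adjusted p = 6.15e-05).

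Libraries correlated with the others of their group at 0.978 to 0.984 over genes. No read counts came with the FPKM; if the smallest step between low values is taken as 1 fragment, libraries held 15.2 to 22.0 M (mega) fragments, and a library's value rested on 57 to 98 fragments for Smad6, 36 to 567 for Id1 and 569 to 3241 for Id2. Genes above 0 numbered 23173 to 23242 in heated control siRNA libraries and 20000 to 21662 in the others, which moved with the members' heat response and whose part in it was not tested. The 7 melanocyte markers summed to 6261 to 8191 FPKM per library and were all present. Of 31 markers of fibroblasts, macrophages, lymphocytes, endothelium and keratinocytes, 7 were at 0 in every library, and no such list summed to more than 6.66 FPKM. The macrophage list was highest in heated control siRNA cells (6.24 to 6.66 FPKM, against 2.34 to 2.64 in unheated control siRNA, 1.57 to 2.05 in unheated YAP/TAZ siRNA and 2.83 to 3.42 in heated YAP/TAZ siRNA cells), as were the lymphocyte and endothelial lists (up to 1.92 and 1.52 FPKM). The defining leukocyte marker Ptprc was at 0 in every library. With heat under control siRNA, mean Cd68 went from 0.72 to 4.23 FPKM and mean Cd79a from 0.23 to 1.85 FPKM. Mean Pecam1 went from 0.028 to 0.998 FPKM in the same cells. The means of Cd68, Cd79a and Pecam1 in heated YAP/TAZ siRNA cells were 1.48, 0.20 and 0.096 FPKM. The fibroblast markers Col1a2 and Pdgfrb fell with heat under control siRNA. The part of these genes in the members' results was not tested. The centre of the data also moved: the all-gene median for heat under control siRNA of -0.16 became 0.0058 with median-of-ratios scaling, which turned 1560 genes called higher and 4654 lower into 2809 and 2744. For the interaction it turned 3102 higher and 1689 lower into 1998 and 2162, for YAP/TAZ siRNA after heat 4589 and 2266 into 3157 and 3298, and for heat under YAP/TAZ siRNA 2347 and 3999 into 2949 and 3076. Every call of a member under the reported settings was kept with that scaling.

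**Figure D3:**
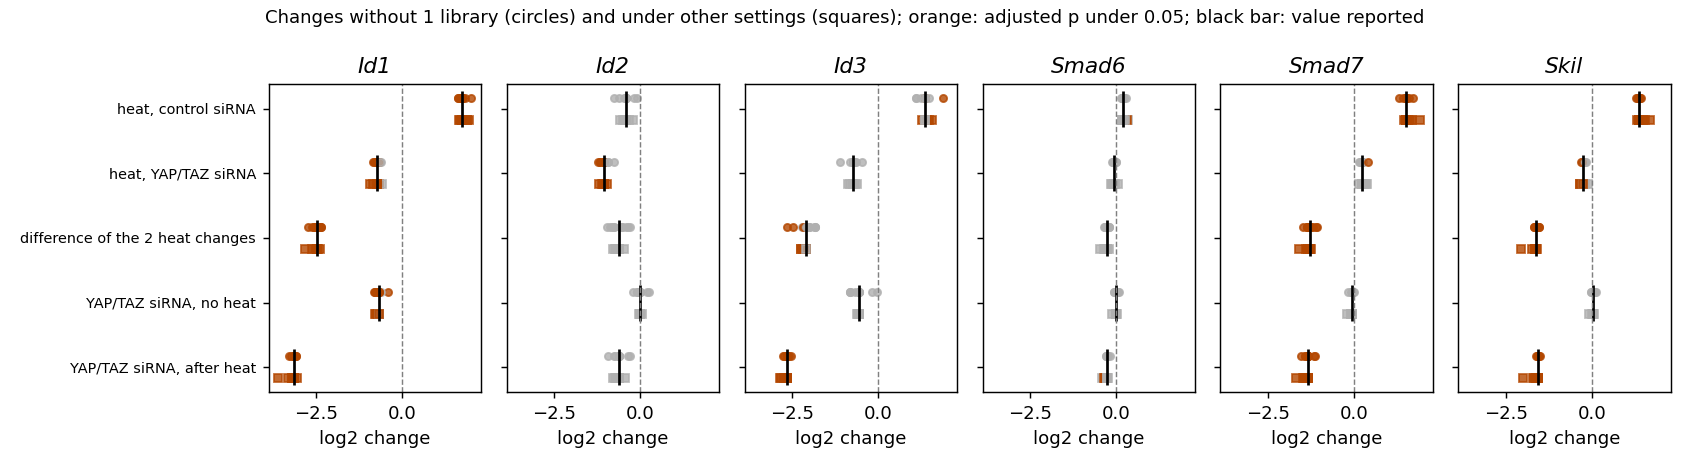
Log2 change (horizontal axis) of each gene in the 5 comparisons as reported (black bar), without 1 library (circles) and under other settings (squares), in orange at an adjusted p under 0.05. The points of Id1, Smad7 and Skil stay on one side of the dashed line at no change for heat under control siRNA, the interaction and YAP/TAZ siRNA after heat, while those near 0 for YAP/TAZ siRNA without heat cross it for Id2, Smad6, Smad7 and Skil.

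The rest of the pathway was read from lists of ligands, receptors, SMADs, antagonists, corepressors, other response genes and bHLH genes. These held 72 genes, of which 49 were tested. With heat under control siRNA, 15 of these 49 rose and 12 fell, where 12.4% of all tested genes rose and 36.9% fell, and their median was -0.0036 beside -0.16. Without heated control siRNA replicate 1, 6 fell, and with median-of-ratios scaling 5 fell. Under YAP/TAZ siRNA heat raised 2 and lowered 25, where 18.6% of all tested genes rose and 31.7% fell, with a median of -0.25 beside -0.086. The interaction was lower for 21 and higher for 2, where 13.4% of all tested genes were lower and 24.6% higher. These lists are described by their counts only.

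Of 16 ligand genes, 6 were tested, and Bmp2, Bmp4, Bmp5 and Gdf6 were listed at 0 in every library. Bmp7 did not pass the filter and was not tested. It was at 0 in every unheated library and at 0.516 and 0.603 FPKM in heated control siRNA cells. In heated YAP/TAZ siRNA cells Bmp7 was at 0.023 to 0.092 FPKM. No other untested ligand gene reached more than 0.11 FPKM in any library. Gdf11, an activin-like ligand, fell with heat under control siRNA by 1.04 ± 0.06 (adjusted p = 1.44e-06) and under YAP/TAZ siRNA by 0.65 ± 0.05 (adjusted p = 2.59e-05). Tgfb1 was higher with YAP/TAZ siRNA, at 3.63, 3.67 and 4.28 FPKM against 1.15, 1.31 and 1.19 FPKM without heat, a log2 change of 1.13 ± 0.07 (adjusted p = 1.98e-06). Tgfb2, another TGF-beta ligand, was also higher without heat (0.97 ± 0.09), and its interaction was -0.77 ± 0.14 (adjusted p = 0.00263). Gdf15, a divergent family member known as a stress signal, rose with heat under control siRNA from 1.19, 1.29 and 1.25 FPKM to 10.3 and 2.59 FPKM (1.51 ± 0.37, adjusted p = 0.00739), with the 2 heated libraries far apart.

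Of the 6 tested ligand genes, 4 were higher with YAP/TAZ siRNA in unheated cells, where 27.1% of all tested genes were higher. In heated cells 3 were higher and 1 lower, where 36.3% of all tested genes were higher and 17.9% lower. With a filter at 5 FPKM, which leaves fewer ligand genes, the counts of higher genes were 1 and 1.

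Of 12 receptor and co-receptor genes, 11 were tested. With heat 7 fell and 1 rose under control siRNA, and 7 fell under YAP/TAZ siRNA, beside 36.9% and 31.7% of all tested genes that fell. With median-of-ratios scaling 3 and 4 fell, without heated control siRNA replicate 1 the first count was 3, and without unheated YAP/TAZ siRNA replicate 1 the second was 4. Acvr1b, an activin type I receptor, fell by 0.82 ± 0.08 under control siRNA (adjusted p = 3.46e-05) and by 0.77 ± 0.07 under YAP/TAZ siRNA (adjusted p = 5.96e-05). Bmpr1a, a BMP type I receptor, went from 11.6, 11.3 and 10.9 FPKM to 12.6 and 12.5 FPKM with heat under control siRNA and from 12.5, 12.6 and 12.0 FPKM to 8.67, 8.94 and 8.19 FPKM under YAP/TAZ siRNA. Its interaction was -0.62 ± 0.07 (adjusted p = 0.000193), the receptor result with the lowest p for that comparison.

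All 6 signalling SMADs were tested, and Smad1, Smad3 and Smad9 were called in at least 1 comparison. Each comparison alone called between 37.9% and 54.3% of all tested genes, so this count is not particular to the SMADs. Smad3, the receptor-regulated SMAD of the TGF-beta branch that binds DNA, went with heat from 6.63, 6.65 and 6.28 FPKM to 6.51 and 6.34 FPKM under control siRNA, and from 8.84, 8.81 and 7.86 FPKM to 6.10, 6.29 and 5.76 FPKM under YAP/TAZ siRNA. It was higher with YAP/TAZ siRNA without heat (0.34 ± 0.06, adjusted p = 0.000918), and its interaction was -0.41 ± 0.08 (adjusted p = 0.00496). Smad9, a SMAD of the BMP branch, was lower with YAP/TAZ siRNA after heat (-0.76 ± 0.16, adjusted p = 0.00284).

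Among 5 tested antagonists and latency proteins of 13 listed, Bambi, a pseudoreceptor that damps both branches, rose with heat under control siRNA as Smad7 did. Its level went from 4.23, 4.31 and 4.56 FPKM to 7.89 and 8.29 FPKM there, and from 4.48, 4.82 and 5.22 FPKM to 5.49, 5.56 and 4.40 FPKM with heat under YAP/TAZ siRNA. Heat raised it by 0.76 ± 0.09 under control siRNA (adjusted p = 0.000128), and the interaction was -0.69 ± 0.12 (adjusted p = 0.00252). Fstl3, a secreted protein that binds activin, was lower with YAP/TAZ siRNA without heat (-1.01 ± 0.09, adjusted p = 1.65e-05) and after it (-1.12 ± 0.10, adjusted p = 1.80e-05).

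All 10 corepressor and ubiquitin ligase genes were tested, and the interaction was lower for 5 of them, beside 13.4% of all tested genes, for 3 without heated control siRNA replicate 1 and for 8 with median-of-ratios scaling. Tgif1, a corepressor that binds SMADs, rose with heat under control siRNA by 0.78 ± 0.08 (adjusted p = 6.61e-05), with an interaction of -0.81 ± 0.11 (adjusted p = 0.000684). Nedd4l, a ubiquitin ligase that targets activated SMADs, had an interaction of -1.05 ± 0.08 (adjusted p = 3.33e-05) of another kind. It stood at 11.1 to 12.8 FPKM in all control siRNA libraries and at 22.9, 23.5 and 22.6 FPKM in unheated against 10.7 to 11.1 FPKM in heated YAP/TAZ siRNA libraries. Ski, the corepressor most like SnoN, was lower with YAP/TAZ siRNA without heat (-0.72 ± 0.10, adjusted p = 0.000221) and after it (-1.23 ± 0.11, adjusted p = 1.64e-05). The Skil changes in the same comparisons were 0.045 ± 0.09 and -1.56 ± 0.10, and the difference between Ski and Skil was not tested.

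Of 12 other SMAD response genes listed, 9 were tested, Tgif1 and Pmepa1 among them although they are also in the corepressor list: heat raised 8 under control siRNA, the interaction was lower for 8 and YAP/TAZ siRNA after heat lowered all 9, while heat under YAP/TAZ siRNA raised 1 and lowered 2. The shares of all tested genes for the first 3 counts were 12.4%, 13.4% and 17.9%. With a filter at 5 FPKM the first 3 counts were 5, 5 and 5, because fewer genes were tested. Junb, an AP-1 subunit that overlaps Prdx2 on the opposite strand, rose with heat under control siRNA by 2.04 ± 0.11 (adjusted p = 8.34e-07), and Cdkn1a, a cell-cycle inhibitor, by 1.21 ± 0.07 (adjusted p = 1.86e-06).

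Ccn2 and Atoh8 were lower with YAP/TAZ siRNA in unheated cells too. Ccn2, a matricellular protein gene known as a target of both SMADs and YAP/TAZ, which overlaps the predicted gene Gm15270, stood at 4.11, 3.72 and 3.8 FPKM in unheated control siRNA cells and at 0.409, 0.268 and 0.376 FPKM in unheated YAP/TAZ siRNA cells (-1.85 ± 0.08, adjusted p = 2.74e-07). Atoh8, a bHLH gene of the BMP response, stood at 4.57, 2.38 and 2.54 FPKM and at 0.270, 0.294 and 0.385 FPKM in the same groups (-1.62 ± 0.18, adjusted p = 7.98e-05). Id1 changed in the same direction there by a smaller amount, -0.67.

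**Figure D4:**
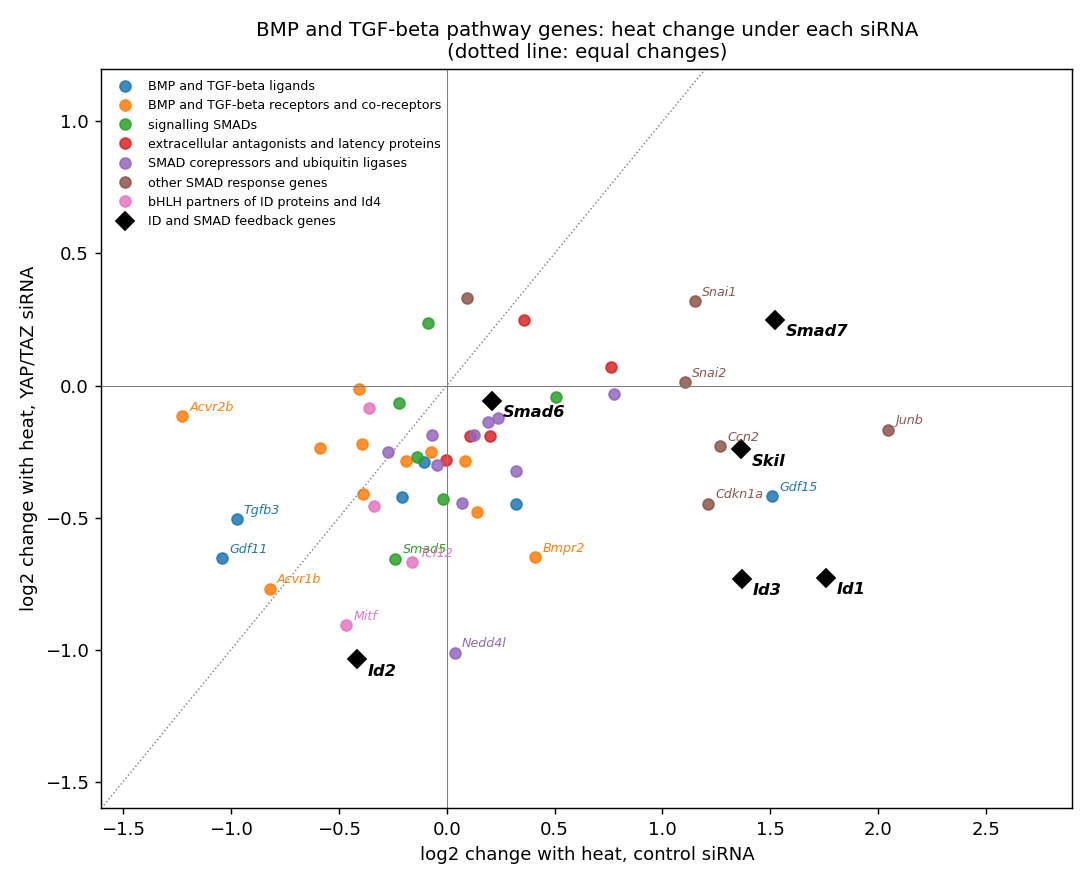
Log2 change with heat under control siRNA (horizontal axis) against log2 change with heat under YAP/TAZ siRNA (vertical axis) for the tested pathway genes but 1 and the 6 members, coloured by list, with a dotted line where both are equal. Id1, Id3, Smad7, Skil, Junb and Cdkn1a lie to the right of the dotted line, below it. The axes share no library, though all 11 entered 1 fit.

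Genes of bHLH factors were also measured, among them those of E proteins, which ID proteins hold. Id4, the other ID gene, was listed at 0 in all 11 libraries. Tcf12, an E protein gene, stood at 8.84, 8.23 and 10.5 FPKM in unheated control siRNA cells and at 17.4, 23.3 and 20.9 FPKM in unheated YAP/TAZ siRNA cells, a log2 change of 1.08 ± 0.14 (adjusted p = 0.000197). It fell with heat under YAP/TAZ siRNA by 0.67 ± 0.14 (adjusted p = 0.00391). Mitf is the bHLH factor that defines the melanocyte lineage. It was at 18.2 FPKM in heated YAP/TAZ siRNA replicate 1 and at 67.7 and 64.3 FPKM in the other libraries of that group. In that replicate 1, Id1, Id2, Id3, Smad6 and Smad7 were each the highest of their group, while Skil was not. For Id2 and Smad6 the margin over the next library was small.

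The genes whose log2 values ran most like each member over the 11 libraries were taken from 6394 non-members with a mean of at least 5 FPKM. For Id1 they were Ppil4 (r = 0.978), Ubfd1 (0.974) and Map3k20 (0.972), and for Id3 Twnk (0.922), Ppil4 (0.910) and Zfp385a (0.900). For Smad7 they were Mex3c (0.981), Yy1 (0.962) and Bambi (0.959), and for Skil Btg2, P2rx7 and Ammecr1l (0.979, 0.979 and 0.978). Id2 and Smad6 had looser matches, among them Bap1 (0.891) for Id2, and Gemin7 (0.816) and Ubxn2a (0.797) for Smad6. Bambi, which ranked 3 for Smad7 behind Mex3c and Yy1, is also in the antagonist list above. The other non-members named here are in none of the pathway lists. Among members, r was 0.91 between Smad7 and Skil and 0.90 between Id1 and Skil, and from -0.28 to 0.38 between Id2 and the others.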

How the data were processed

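The authors deposited 1 table of gene-level FPKM for the 11 libraries; per the labels' protocols, RNA came from a Trizol extraction and libraries from the NEBNext Ultra kit. The submitters' processing notes list GRCm38 as the build and, without saying what each did, StringTie, HISAT2, DESeq2, SAMtools and Trimmomatic 0.36. Strandedness, settings and the annotation release are unknown (not given in the sources used here), so reads of overlapping genes cannot be separated; no member overlaps another gene in GENCODE M21. Of 54686 entries, 54104 carried Ensembl identifiers (54038 matched a symbol) and 582 were other loci. Of values above 0, 0% were whole numbers (tolerance 1e-06), so count models were not used.

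Values entered limma 3.58.1 (R 4.3.3) as log2(FPKM + 1), with a mean per group, no covariate, 7 residual degrees of freedom and empirical Bayes with a trend. The 12626 genes that reached 1 FPKM in 2 or more libraries were tested in 5 comparisons, each with its own Benjamini-Hochberg adjustment. The fit was tested on simulated data with 200 changed genes. Pseudocount, filter, scaling, prior, samples in the fit, replicate block and each left-out library were varied. The pathway lists named up to 3 called genes each per comparison by lowest p-value. Likeness used Pearson's r of log2 values. Tables came from pandas 2.3.3 and numpy 2.4.6, and figures from matplotlib 3.10.9, under Python 3.11.15. The members, lists and tests were chosen with earlier results of these data known. Of the genes named by the list and likeness rules, 2 are not reported here.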

Additional observations from a re-analysis of the deposited data

Results flagged for a closer look

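The heat response of 4 genes differed between the siRNAs by the interaction term of limma, adjusted over 12626 genes. The heat change under YAP/TAZ siRNA minus that under control siRNA was -2.48 for Id1 (adjusted p = 0.00038), -2.10 for Id3 (adjusted p = 0.0319), -1.27 for Smad7 (adjusted p = 0.00323) and -1.61 for Skil (adjusted p = 4.44e-05). Heat moved Id1 up in both heated control siRNA libraries and down in all 3 heated YAP/TAZ siRNA libraries, relative to every unheated library of the same siRNA. For Id1, Smad7 and Skil the interaction was called in all 19 alternatives, over which the adjusted p reached 0.0033, 0.0161 and 0.000387 at most. For Id3 it was called in 9 of 19.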

How the results depend on the processing

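Over the alternatives, 531 of the members' results kept their direction and their side of the threshold, 31 lost a call, 12 gained one and 15 changed sign without being called in either setting. The number of members called for heat under YAP/TAZ siRNA was 1 after quantile normalization and ranged from 0 to 3 when libraries were left out in turn. For YAP/TAZ siRNA without heat it was 0 with no filter and 0 in a fit of only the groups compared, and from 0 to 1 with libraries left out. Changes near 0 that turned sign were Smad6 with heat under YAP/TAZ siRNA (0.075 after quantile normalization, and -0.10 to 0.014 over the left-out libraries, positive without heated YAP/TAZ siRNA replicate 3) and, for YAP/TAZ siRNA without heat, Id2 (-0.030 with median-of-ratios scaling, -0.19 to 0.26 over the left-out libraries), Smad6 (-0.0055 with median-of-ratios scaling, -0.11 after quantile normalization, -0.044 to 0.097 over the left-out libraries), Smad7 (-0.15 to 0.021 over the left-out libraries) and Skil (-0.075 after quantile normalization, -0.026 to 0.11 over the left-out libraries). The cause was not tested. With the replicate number as a block, heat called 3 members with each siRNA, the interaction 3, and YAP/TAZ siRNA 1 without heat and 4 after it; Id3 lost its calls for heat in control siRNA cells (1.36, adjusted p = 0.0791) and the interaction (-2.09, adjusted p = 0.0572), and Skil gained one for heat under YAP/TAZ siRNA (adjusted p = 0.0447). Among all 12626 genes, the fit with this block called 1660 higher and 4803 lower with heat in control siRNA cells. In YAP/TAZ siRNA cells heat gave 2452 higher and 4143 lower. The interaction gave 3385 higher and 1909 lower. The siRNA contrast gave 3560 higher and 2939 lower in unheated cells, and 4710 higher and 2429 lower in heated cells. The samples share only a number: deviations of same-numbered libraries correlated at -0.11 to 0.134 over 15 pairs, those of other pairs at -0.18 to 0.155. Heated control siRNA cells had 2 libraries, so a fit without one of them assumes that the other varies like the rest. The interaction could not be fitted on fewer than 4 groups, and Smad6 was not tested with the filter at 5 FPKM.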
